A study of Drosophila melanogaster with 6 samples.

Results

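The 6 opsin genes ninaE, Rh2, Rh3, Rh4, Rh5 and Rh6 were examined together with norpA, trp, trpl and inaD, which act directly downstream of the opsins in the light response. These 10 of the 17737 genes in the count files were taken by symbol, through the FlyBase identifiers that the deposited comparison table pairs with symbols, and the rule uses no measured value. RNA was sequenced from w1118 males that developed on cornmeal food, were moved as newly emerged virgin adults to holidic food (HF, a chemically defined diet) or to HF with 50 g/L of added glucose (GSF), and were kept there for 20 days at 25°C. Each diet had 3 libraries of 5 whole flies, so the measured RNA came from all tissues and from eyes that, on both diets, lacked the function of w, the gene of the white pigment transporter. The methods call the libraries of a diet biological replicates, but nothing says whether their flies came from separate vials, so p-values measure the spread between these libraries.

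In the fly eye, light turns rhodopsin, an opsin bound to a vitamin A-derived chromophore, into its active form, which acts through the Gq protein on the phospholipase C encoded by norpA. Cleavage of the membrane lipid PIP2 then opens the calcium-permeable channels TRP and TRPL, and the scaffold protein INAD holds the phospholipase, TRP and an eye-specific protein kinase C together in the light-sensing membrane, the rhabdomere. Each ommatidium has outer photoreceptors, R1 to R6, with the opsin Rh1 of ninaE, and inner photoreceptors, R7 and R8, with Rh3 above Rh5 or Rh4 above Rh6, while Rh2 is the opsin of the ocelli, the simple eyes on top of the head.

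The comparison of GSF with HF asked whether the added glucose went with a different level of these transcripts after 20 days. In edgeR's quasi-likelihood test 0 of 10 members passed both thresholds (p below 0.01 and FDR, the p adjusted by Benjamini and Hochberg's method, below 0.05), while 5.14% of the 13373 genes tested did. The likelihood ratio test, the exact test and DESeq2 also gave 0 of 10, where 1048, 1043 and 1428 of all 13373 genes tested passed. At an unadjusted p under 0.05 there were 3 members, trpl and inaD at lower levels and norpA at a higher level on GSF, and 19.7% of all genes tested were under this p. Of the 10 log2 fold changes, 5 were above and 5 below 0, with a median of -0.02 against 0.01 over all genes tested. In 4 members no library of a diet fell within the range of the other, with ninaE, trpl and inaD lower and norpA higher on GSF, and 25.2% of all genes tested did not overlap. The replicate number was also used as a block, which pairs libraries of the same number. The labels do not state this pairing, and it was inferred from correlations in these same counts. With the block, 3 members passed both thresholds, and 13.3% of all genes did. These were trpl, which fell by 0.27 on the log2 scale (FDR = 0.0344), inaD, which fell by 0.21 (FDR = 0.0462), and norpA, which rose by 0.23 (FDR = 0.0476). In whole flies, fewer photoreceptors and less of an RNA per photoreceptor cannot be told apart. With each library left out in turn, 0 members passed in each of the 6 fits without the block. In those fits 116 (without GSF replicate 1) to 517 (without HF replicate 3) of all genes tested passed.

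**Figure D1:**
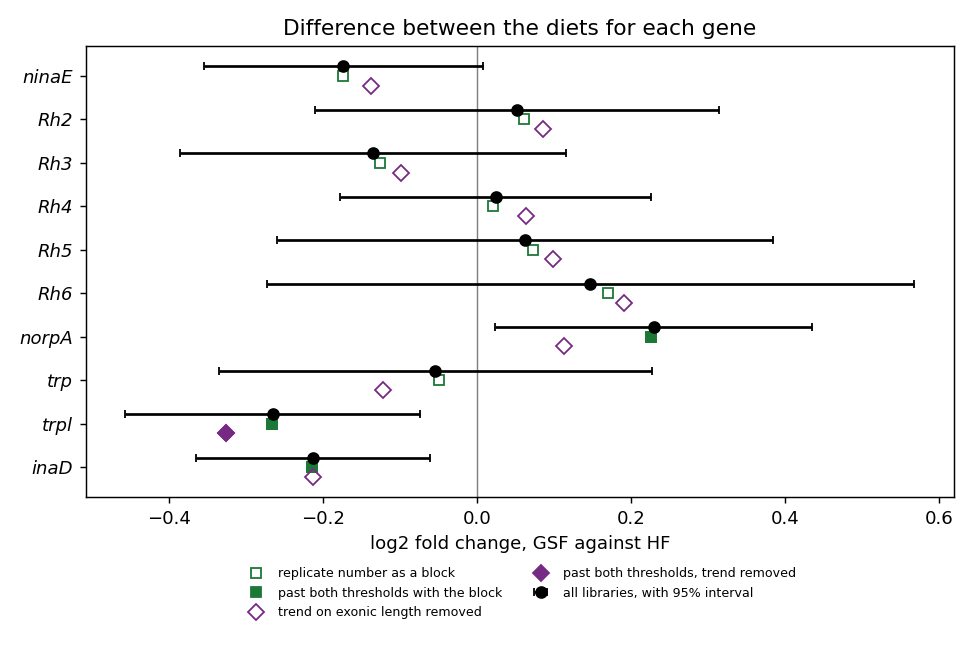
Log2 fold change of each gene, GSF against HF, from the fit on all libraries with its 95% interval (black circles), with the replicate number as a block (green squares) and with the trend on exonic length removed (purple diamonds); filled squares and diamonds passed both thresholds. The intervals of norpA, trpl and inaD do not reach 0, and with the length trend removed the value of norpA moves from 0.23 to 0.11.

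Counts of a member lay between 1246 (Rh5) and 162368 (ninaE) in a library, and the values that follow are CPM, counts per 1000000 counts in genes, scaled by edgeR's TMM method. The library totals were 51826530 to 66493536 counts, and annotated ribosomal RNA took 17.9% to 18.6% of them on HF and 20.6% to 24.5% on GSF. These shares did not overlap between the diets, so differences that go with them cannot be told apart from differences of diet. Defining genes of photoreceptors outside the 10 were present in every library: chp, a cell adhesion gene of the rhabdomere, had a mean of 123 CPM on HF and 123 CPM on GSF, and Arr2, the main arrestin, 849 and 772 CPM. Reads of w were near the filter of 1 CPM, between 1.02 and 1.82 CPM.

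ninaE (FBgn0002940, chromosome 3R of BDGP6.54, 19886255 to 19888206, minus strand) encodes Rh1, the main opsin of the eye. It had 2542, 2711 and 2485 CPM in HF replicates 1 to 3 and 2130, 2430 and 2300 CPM in GSF replicates 1 to 3. Every GSF library was below every HF library, by a narrow margin between GSF replicate 2 and HF replicate 3. The log2 fold change was -0.17 (standard error 0.08, FDR = 0.275, and 0.133 with the block), with a 95% interval from -0.35 to 0.01.

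Rh3 and Rh4 are the ultraviolet opsins of R7 cells. Rh3 (FBgn0003249, 3R, 20081060 to 20082450, minus strand) had 58.2, 63.8 and 47.5 CPM on HF and 49.7, 53.4 and 51.2 CPM on GSF. Rh4 (FBgn0003250, 3L, 16852527 to 16862517, minus strand) had 148, 136 and 141 CPM on HF and 128, 148 and 155 CPM on GSF. The diets overlapped in both genes, and in Rh3 the HF libraries spread over a range that held all 3 GSF libraries. The log2 fold change of Rh3 was -0.14 (standard error 0.11, FDR = 0.582), with a 95% interval from -0.39 to 0.12. That of Rh4 was 0.02 (standard error 0.09, FDR = 0.937), with an interval from -0.18 to 0.23. 

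Rh5 and Rh6 are the blue and green opsins of R8 cells. Rh5 (FBgn0014019, 2L, 12008153 to 12009832, plus strand) had 29.1, 27.4 and 20.6 CPM on HF and 28.6, 28.0 and 23.9 CPM on GSF. Rh6 (FBgn0019940, 3R, 15483158 to 15484699, plus strand) had 34.7, 25.6 and 42.9 CPM on HF and 33.0, 41.7 and 39.5 CPM on GSF. The HF libraries again held the widest spread, with Rh5 lowest and Rh6 highest in HF replicate 3. The log2 fold changes were 0.06 for Rh5 (standard error 0.14, FDR = 0.887, interval from -0.26 to 0.38) and 0.15 for Rh6 (standard error 0.18, FDR = 0.762, interval from -0.27 to 0.57). The interval of Rh6 was the widest of the 10, and differences up to its bounds were not excluded.

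Rh2 (FBgn0003248, 3R, 18899423 to 18901019, plus strand), the violet opsin of the ocelli, had 26.0, 29.2 and 21.6 CPM on HF and 26.7, 25.3 and 27.6 CPM on GSF. Its GSF libraries all lay within the range of the HF libraries. The log2 fold change was 0.05 (standard error 0.11, FDR = 0.885, interval from -0.21 to 0.31).

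norpA (FBgn0262738, X, 4322626 to 4365408, plus strand) encodes the phospholipase C that photoreceptors need to respond to light, and neurons outside the retina also express it. It had 106, 115 and 115 CPM on HF and 116, 140 and 137 CPM on GSF. The diets did not overlap, although GSF replicate 1 lay close to HF replicates 2 and 3. The log2 fold change was 0.23 (standard error 0.09, FDR = 0.207), with a 95% interval from 0.02 to 0.44. norpA has the longest exonic sequence of the 10 genes, 8296 bp, and the 486 genes tested within 20% of this length had a median log2 fold change of 0.10. With a smooth trend on exonic length removed from each library, norpA had a log2 fold change of 0.11 (FDR = 0.345, and 0.163 with the block).

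**Figure D2:**
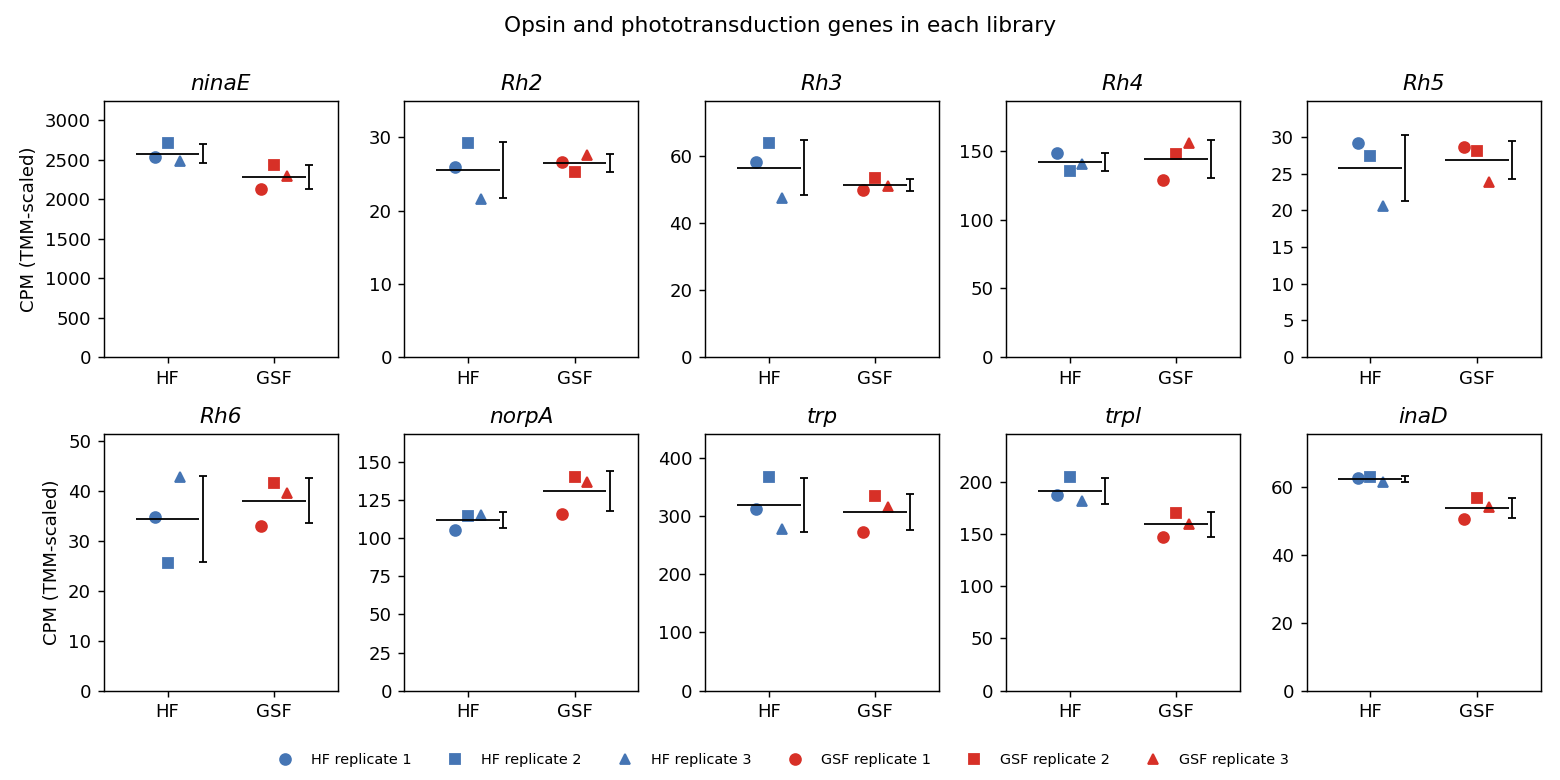
TMM-scaled CPM of the 10 genes in each library, with blue symbols for HF and red symbols for GSF, the shape giving the replicate number; the horizontal line is the mean of 3 libraries and the bar beside it is 1 SD either way. The diets stand apart in ninaE, trpl and inaD (lower on GSF) and in norpA (higher on GSF), and overlap in the other panels.

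trp (FBgn0003861, 3R, 29914521 to 29920289, minus strand) encodes the main light-activated channel. Its levels were 312, 367 and 277 CPM on HF and 273, 333 and 315 CPM on GSF. The diets overlapped, with HF replicate 2 above and GSF replicate 1 below all the others, and the log2 fold change was -0.05 (standard error 0.12, FDR = 0.888, interval from -0.34 to 0.23). 

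trpl (FBgn0005614, 2R, 9753697 to 9765518, plus strand) encodes the second channel, whose protein moves out of the rhabdomere in the light. It had 188, 205 and 182 CPM on HF and 147, 171 and 160 CPM on GSF, and all 3 GSF libraries lay below the lowest HF library. The log2 fold change was -0.27 (standard error 0.08, FDR = 0.122, 0.832-fold), with a 95% interval from -0.46 to -0.07. It stayed between -0.32 and -0.20 with single libraries left out, with an FDR between 0.15 and 0.346. With the length trend removed, trpl passed both thresholds, with a log2 fold change of -0.33 (FDR = 0.0472, and 0.0168 with the block), where 5.42% of all genes passed without and 12.3% with the block.

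inaD (FBgn0001263, 2R, 22855688 to 22858794, minus strand), the scaffold gene, had 62.7, 63.0 and 61.5 CPM on HF and 50.7, 56.6 and 54.2 CPM on GSF. The HF libraries were close to each other (62.4 ± 0.81 CPM, SD, n = 3), and each GSF library was lower (53.8 ± 2.97 CPM). The log2 fold change was -0.21 (standard error 0.07, FDR = 0.118, 0.863-fold), with a 95% interval from -0.37 to -0.06. It passed with the block when the length trend was removed (FDR = 0.0416) and lay between -0.25 and -0.17 with single libraries left out. Its annotated exons share 7 bp with RpL23 on the other strand, and RpL23 had 32329 to 41845 counts, and reads from those 7 bp cannot be told apart unless the counting used strand, which the sources used here do not say. No other member shares exonic bases with a gene of the files.

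Compared per kb of exon, the order of the levels was led by ninaE on both diets, with 1624 ± 73.9 CPM per kb (SD, n = 3) on HF and 1440 ± 94.5 on GSF. This was 12.6 to 17.0 times the level of the next member, Rh4, in the same library. Rh4 (105 ± 4.83 on HF and 107 ± 10.3 on GSF), trp (76.8 ± 10.99 and 74.0 ± 7.47) and trpl (49.2 ± 3.11 and 40.9 ± 2.99) followed without overlap between neighbours. On GSF trpl overlapped with Rh3, which came next (40.6 ± 5.94 and 37.0 ± 1.31). The lowest members were norpA (13.5 ± 0.65 and 15.8 ± 1.58), Rh5 (16.4 ± 2.87 and 17.1 ± 1.64) and Rh2 (18.8 ± 2.78 and 19.4 ± 0.88). The length used counts every annotated exon base of a gene, which can exceed the length of a single transcript. In CPM not divided by length, norpA had means of 112 on HF and 131 on GSF, above Rh2, Rh3, Rh5, Rh6 and inaD. On HF the libraries of inaD and Rh6, of Rh6 and Rh2, of Rh2 and Rh5 and of Rh5 and norpA overlapped, so the order at the lower end was not set by these libraries. On GSF the neighbours that overlapped were trpl and Rh3, Rh6 and inaD, and Rh5 and norpA, and inaD came after Rh6 there.

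**Figure D3:**
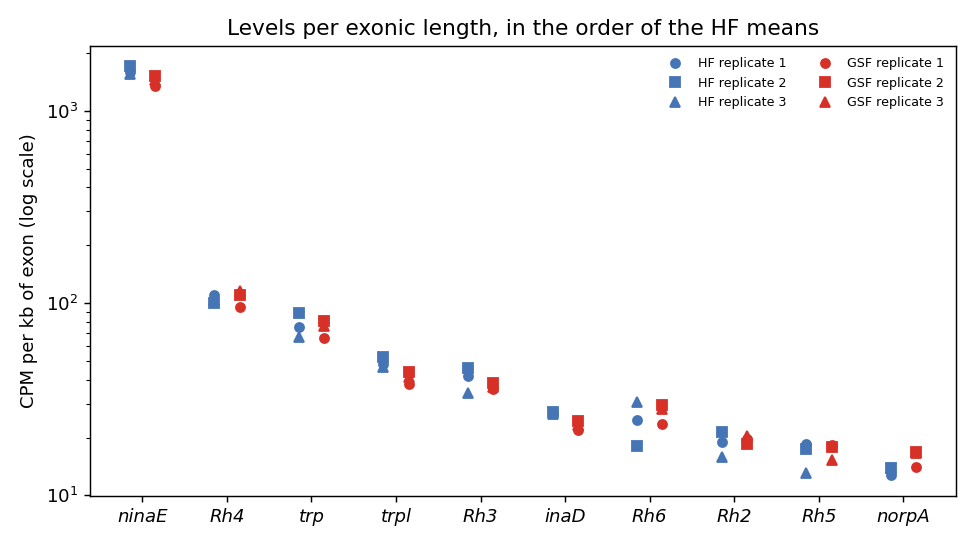
Level of each gene in CPM per kb of exon on a log axis, in the order of the HF means, with 3 HF libraries (blue) and 3 GSF libraries (red) per gene. ninaE lies at 1342 or above in every library and the other 9 genes lie between 12.7 and 115.

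Ratios of levels per kb were formed for pairs of members, chosen after their values were seen and given without a test. Rh3 and Rh5 mark one type of ommatidium, called pale, and Rh4 and Rh6 the other, called yellow. The ratio of Rh5 to Rh6 was 0.750, 0.960 and 0.430 on HF and 0.775, 0.602 and 0.541 on GSF. That of Rh3 to Rh4 was 0.380, 0.456 and 0.327 on HF and 0.376, 0.350 and 0.319 on GSF. The diets overlapped in both ratios, and on HF both were highest in replicate 2 and lowest in replicate 3. The ratio of trpl to trp was 0.640, 0.595 and 0.700 on HF and lower in each GSF library, at 0.576, 0.545 and 0.542. The ratio of norpA to trp was 0.169, 0.156 and 0.208 on HF and 0.213, 0.210 and 0.218 on GSF. The diets did not overlap here either, but the margin between HF replicate 3 and GSF replicate 2 was narrow. Like norpA itself, this ratio rests on genes of unequal length. The ratio of inaD to trp overlapped, at 0.357, 0.306 and 0.396 on HF and 0.331, 0.302 and 0.306 on GSF, as did that of Rh2 to ninaE (0.0101 to 0.0125 on HF and 0.0121 to 0.0146 on GSF).

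Some members had their highest and lowest libraries in common. Over all 6 libraries ninaE, trp, trpl and inaD were each highest in HF replicate 2 and lowest in GSF replicate 1, and on each diet replicate 2 was the highest for all 4. Rh2, Rh3 and Rh5 were lowest in HF replicate 3, where Rh6 was highest. Rh6 was lowest in HF replicate 2 and norpA in HF replicate 1. Rh4 was highest in GSF replicate 3 and Rh5 in HF replicate 1. How many of all genes share such a pattern was not counted. Without HF replicate 3 the median log2 fold change of the 10 genes was -0.11 in place of -0.02, and trp turned from -0.05 to 0.08 without HF replicate 2.

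Other genes of the light cascade were read from a list of 24 partners. Of the 23 found in the files, all tested, 1 rose and 0 fell past the thresholds, against 5.14% of all genes tested. Of their log2 fold changes, 16 were above and 7 below 0, with a median of 0.04. The gene that rose was Gprk1, a G protein-coupled receptor kinase that phosphorylates rhodopsin and is also expressed outside the eye. It averaged 42.2 ± 1.41 CPM under HF (SD, n = 3) and 59.0 ± 3.81 CPM under GSF, with a log2 fold change of 0.48 (standard error 0.07, FDR = 0.0133). Without HF replicate 1 or GSF replicate 1 it did not pass (FDR = 0.0613 and 0.058). Galphaq, the G protein subunit that activates the phospholipase, averaged 93.5 ± 3.17 CPM under HF and 110 ± 5.16 CPM under GSF, with a log2 fold change of 0.23 (FDR = 0.0943), and passed with the block (FDR = 0.03). Its counts are uncertain, since it shares 3050 bp of exon with CG45086 on the same strand, and with the length trend removed the value was 0.13. Rh7, an opsin of the brain outside the 10 genes, had 2.51 ± 0.30 and 3.17 ± 0.53 CPM (log2 fold change 0.33, FDR = 0.327). The arrestins Arr1 and Arr2, which end the activity of rhodopsin, had log2 fold changes of -0.12 and -0.14 (FDR = 0.418 and 0.387). rtp, which encodes retinophilin, a rhabdomere protein, had -0.21 (FDR = 0.153) with no overlap between the diets, and shares 197 bp of exon with Mms19 on the other strand. inaF-B, from the locus whose product stabilizes TRP, shares 2697 bp of exon with inaF-D on the same strand, so its counts are uncertain (log2 fold change 0.12, FDR = 0.548).

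Genes for the maturation of opsins and for their chromophore had log2 fold changes below 0 in 11 of 11 cases, with a median of -0.14. Of the 13373 genes tested, 6383 were below 0, and with the length trend removed the median of the 11 was -0.10. ninaA, which is among the 11, shares 871 bp of exon with CG15824 on the other strand, which had 3310 to 4762 counts. Xport-A and Xport-B, chaperones of TRP and Rh1, share 949 bp of exon and had equal counts in all 6 libraries, so they count as a single measurement. Against 5.14% of all genes tested, 0 of the 11 rose and 1 fell past the thresholds. This was Pdh, a retinol dehydrogenase of the pigment cells, at 161 ± 9.47 CPM on HF and 130 ± 2.11 CPM on GSF (log2 fold change -0.31, standard error 0.07, FDR = 0.0461). It passed in 0 of the 6 fits without a library (FDR between 0.106 and 0.152), in which 116 to 517 of all genes passed. It did not pass with the length trend removed (FDR = 0.0597). Pdh passed with the block (FDR = 0.0193), where 13.3% of all genes did. It also passed with the block and the length trend removed (FDR = 0.0161), where 12.3% of all genes did. Of its exons, 355 bp lie opposite an antisense RNA with 5230 to 6642 counts. rdhB, a second retinol dehydrogenase, had -0.21 (FDR = 0.17). santa-maria, a scavenger receptor that takes up carotenoids, had -0.20 (FDR = 0.15), and passed with the length trend removed (FDR = 0.038). It shares 528 bp of exon with CG5973 on the other strand, which had 8453 to 10863 counts. ninaD, another carotenoid receptor, was near the filter at 1.16 ± 0.08 and 0.92 ± 0.37 CPM (-0.34, FDR = 0.621).

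Of 7 genes for the rhabdomere and the lens, 0 passed, against 5.14% of all genes tested, and the median log2 fold change was 0.01. Moe, a membrane-to-actin linker of the rhabdomere that is also expressed in other epithelia, had 0.27 (FDR = 0.224), crb, a polarity gene of the photoreceptor stalk, 0.11 (FDR = 0.548), and Crys, a lens protein, -0.04 (FDR = 0.935). Among 9 genes of histamine transmission, by which photoreceptors signal to the brain, 1 rose and 0 fell past the thresholds, against 5.14% of all genes tested. Their median was 0.02. lovit, a vesicular transporter that photoreceptors need to load histamine, averaged 8.77 ± 0.31 CPM under HF and 13.1 ± 0.82 CPM under GSF, with a log2 fold change of 0.58 (standard error 0.08, FDR = 0.0126, and 0.0581 without HF replicate 1). The histamine receptor genes ort and HisCl1 had 0.25 and 0.16 (FDR = 0.426 and 0.477), and Hdc, which encodes the enzyme that makes histamine, had -0.04 (FDR = 0.919). Of 14 transcription factor genes of photoreceptor fate, 0 passed, against 5.14% of all genes tested, with a median of 0.06. The furthest from 0 were pros (0.39, FDR = 0.0633, and 0.00986 with the block), sens (0.36, FDR = 0.321) and toy (0.33, FDR = 0.102, and 0.0252 with the block), and pros is expressed in the gut and brain as well as in R7 cells.

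**Figure D4:**
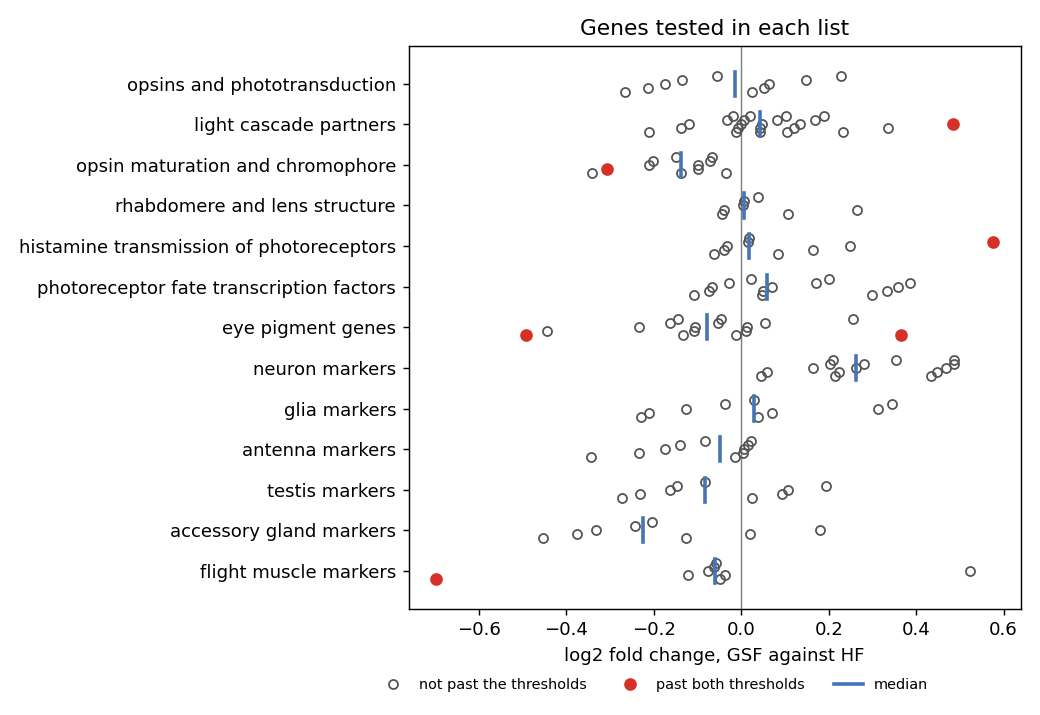
Log2 fold change, GSF against HF, of every gene tested in each list (circles), filled red where both thresholds were passed, with the median of the list as a blue line. The neuron markers all lie to the right of 0 with a median of 0.26, while the 10 opsin and phototransduction genes lie on both sides with a median of -0.02.

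Markers of other cells of a whole male were read beside the eye genes. All 15 neuron markers had log2 fold changes above 0, with a median of 0.26. Without the block 0 passed (5.14% of all genes tested), and 11 had an unadjusted p under 0.05 (19.7% of all genes). With the block 9 passed (13.3% of all genes), and 5 with the block and the length trend removed (12.3% of all genes). The summed level of the 15 neuron markers was 616 to 672 CPM on HF and 686 to 824 CPM on GSF. With the length trend removed their median was 0.17, and Appl (-0.06) and ChAT (-0.0043) were below 0. ChAT and VAChT share 606 bp of exon on the same strand, so their counts are uncertain. The defining neuron gene elav had 0.20 (FDR = 0.212), and 0.08 with the length trend removed. It shares 673 bp of exon with arg on the other strand. The summed level of the 10 members was 3393 to 3742 CPM on HF and 2984 to 3427 CPM on GSF, and most of it was ninaE. The 9 glia markers had a median log2 fold change of 0.03 and summed levels of 1142 to 1154 CPM on HF and 1056 to 1124 CPM on GSF. The 10 antenna markers tested had a median of -0.05 (311 to 350 and 256 to 319 CPM), and 9 testis markers had -0.08 (674 to 930 and 735 to 848 CPM). The 8 accessory gland markers had -0.22 (748 to 1048 and 688 to 787 CPM), and 8 flight muscle markers had -0.06 (2768 to 3117 and 2698 to 2979 CPM). In these 5 lists 1 gene passed without the block, where 5.14% of all genes tested did. This was fln, a protein of the flight muscle filament, which fell by 0.70 on the log2 scale (FDR = 0.0135). It passed in 3 of the 6 fits without a library, those without an HF library. Its counts are uncertain, since it shares 801 bp of exon with an antisense RNA that had 403 to 750 counts. With the block 2 glia markers passed upward, and 1 antenna, 3 accessory gland and 1 flight muscle marker downward, against 13.3% of all genes. The part of these tissues in the values of norpA, trpl and inaD was not tested.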

How the data were processed

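Per the labels and the study's methods, the authors checked reads with FastQC, removed adaptors and short reads with Trimmomatic, aligned the pairs with HISAT2 (version 2.1.0) to BDGP6, used SAMtools (version 1.8) to change the file format, and took gene counts with Rsubread. The deposited files hold these raw counts for 17737 genes, and the strand setting and the treatment of reads with several matches are not given in the sources used here. A deposited table of the authors' edgeR comparison, with fold changes, p-values and FDR, was read only for the pairing of symbols with identifiers.

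The software was R 4.3.3, edgeR 4.0.16 and, as an alternative, DESeq2 1.42.0. Genes that reached 1 CPM in 3 or more libraries were scaled by TMM and tested across all 13373 genes with the quasi-likelihood test (two-sided). Each standard error is the size of the log2 fold change over the square root of its F statistic, and 95% intervals use the test's degrees of freedom. The scripts were tested on simulated data. An exact permutation test of 3 against 3 libraries cannot go below 0.1, so none was used for single genes. Exonic lengths and coordinates come from the Ensembl annotation of BDGP6.54, an annotation of the same assembly that is later than the one the counting used, and no sequence is shown.

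Libraries of the same replicate number deviated together from their diet's mean (correlations over genes of 0.188, 0.247 and 0.476, and -0.309 to 0.115 for unlike numbers). The numbers were taken to pair the libraries on this evidence, since the labels do not say what a number shares. This evidence comes from the same counts that were tested, so FDR values with the block may be too small. The genes and the 12 lists of other genes were chosen with earlier results of these data known, and 143 of 144 list entries matched a gene (Pld did not). Named genes are the 10 members, called genes of the lists, the 3 furthest from 0 in each list other than the cell type markers, and the 10 genes most like the members' mean profile. Others are named for their role. Alternatives were other scalings, filters, tests and thresholds, the block, removal of a trend on exonic length (fitted as a 5-df spline and given as an offset) and each library left out.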

Additional observations from a re-analysis of the deposited data

How the results depend on the processing

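The number of the 10 genes past the thresholds was 0 under other scalings, filters and tests and 0 with each library left out, and it was 3 with the replicate block, 1 with the length trend removed, 2 with the length trend removed and the replicate block, and 3 where only an unadjusted p of 0.05 was asked. Their median lay between -0.11 and 0.020 with single libraries left out. Of the 23 partners of the cascade tested, 2 passed with DESeq2 and 2 with the replicate block. An unadjusted p under 0.05 was found for 4 of them, and 0 to 1 passed with single libraries left out. Of all genes tested, 13.3% passed with the block, 5.42% with the length trend removed and 12.3% with both, and 19.7% had an unadjusted p under 0.05. Of 170 values of single members under the alternatives, 158 kept their direction and side of the threshold, 6 passed in addition, all with the block or the length trend removed, and 6 changed sign, all with a library left out. The ranges were -0.055 to 0.17 for Rh2, -0.023 to 0.10 for Rh4, -0.072 to 0.16 for Rh5, -0.0092 to 0.34 for Rh6 and -0.14 to 0.078 for trp. Over all genes, 687 passed without the block, 1782 with it, 1629 with the block and the length trend removed, 1048 in the likelihood ratio test, 1043 in the exact test and 1428 with DESeq2. With a library left out, 517 passed without HF replicate 3, 403 without HF replicate 2, 280 without GSF replicate 2, 258 without GSF replicate 3, 169 without HF replicate 1 and 116 without GSF replicate 1. The cause of these differences was not tested.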

Other observations

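Genes of the eye pigments, which w1118 eyes lack, were read separately, since many of them also work in other tissues. Of 16 tested genes of this list, 1 rose and 1 fell past the thresholds, against 5.14% of all genes tested. The median log2 fold change was -0.08. ry, the xanthine dehydrogenase gene, fell from 68.7 ± 2.95 CPM under HF (SD, n = 3) to 48.8 ± 1.28 CPM under GSF, with a log2 fold change of -0.49 (standard error 0.06, FDR = 0.0101 from edgeR's quasi-likelihood test), and did not pass without GSF replicate 1 (FDR = 0.0533). lt, a gene of vesicle traffic to lysosomes and pigment granules, rose from 50.7 ± 1.25 to 65.3 ± 2.31 CPM (log2 fold change 0.37, standard error 0.06, FDR = 0.0185), and passed in 2 of the 6 fits without a library, those without HF replicate 2 or HF replicate 3 (FDR = 0.0486 and 0.0437). Hn, the phenylalanine hydroxylase gene, had 294 ± 31.5 and 216 ± 23.0 CPM (log2 fold change -0.44, FDR = 0.0661, and 0.0324 with the block).

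The mean standardized profile of the 10 members was highest in HF replicate 2 and lowest in GSF replicate 1. The 10 genes whose log2 CPM was most like it over the 6 libraries had Pearson correlations of 0.953 to 0.988, given as a description of 6 points that hold both diets. They were CG7137, Hsp110, Nse1, woc, mor, CG7326, phol, Prp8 and the unnamed genes FBgn0039632 and FBgn0032361, and none of them is in the lists of eye genes.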
